A study of Mus musculus with 12 samples.

Results

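Spp1, Trpc4, Fgd3 and Trem1 are 4 of the 15334 protein-coding genes measured at P16 (postnatal day 16) in cells of the dermal papilla (DP), the cluster of specialized mesenchymal cells at the base of the hair follicle. They were chosen by name, because their transcripts fell among the farthest in the mutant DP at P16, and were then followed in all 12 libraries analysed here. RNA was sequenced from YFP-labelled cells sorted by FACS out of dissociated mouse skin at P14 and P16, from 3 control and 3 mutant mice on each day. In the mutant, called dMF1/2, the FGF receptor genes Fgfr1 and Fgfr2 are both floxed on each allele and deleted by Cor-cre, a Cre allele at the Corin locus that is active in the DP. The study's methods list as controls mice with Cor-cre and 1 floxed copy of each receptor gene, and mice without Cre that carry both floxed genes, while the labels call the control mice wild type. Since the YFP reporter needs Cre, sorted control cells would also carry Cor-cre, but which control genotype gave each library is not stated in the sources used here. Both days fall in anagen, the growth phase of the hair cycle.

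Osteopontin, the product of Spp1, is a secreted phosphorylated glycoprotein of bone and other tissues that binds integrins and CD44. Trpc4 encodes a cation channel that opens downstream of phospholipase C and lets calcium and sodium into the cell. Fgd3 encodes a guanine nucleotide exchange factor of the FGD family, whose members act on Cdc42, a small GTPase that organizes actin. Trem1 encodes a surface receptor known from neutrophils and monocytes, where it signals through the adaptor encoded by Tyrobp. FGF receptors signal in part through the ERK kinases, which induce the ETS transcription factors Etv1, Etv4 and Etv5 and feedback genes such as Dusp6.

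The promoter windows of the 4 genes are shown because the genes were high and low in much the same libraries. Each line gives the 250 bases before an annotated start in RefSeq on GRCm38.p6, read 5′ to 3′ in the direction of the gene. Capitals mark matches on either strand to GGAAGT, a form of an ETS site, or to TGTGGT, a form of a RUNX site. No match to TGANTCA (AP-1) or CTTTGAT (TCF/LEF) was present. Shorter or other forms of these sites were not searched.

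Spp1, chr5:104434861-104435110, plus strand: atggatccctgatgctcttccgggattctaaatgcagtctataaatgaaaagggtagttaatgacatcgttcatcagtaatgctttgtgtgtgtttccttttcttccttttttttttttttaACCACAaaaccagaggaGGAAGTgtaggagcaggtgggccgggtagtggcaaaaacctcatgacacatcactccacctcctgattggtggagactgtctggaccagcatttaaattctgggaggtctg
Trpc4, chr3:54155807-54156056, plus strand: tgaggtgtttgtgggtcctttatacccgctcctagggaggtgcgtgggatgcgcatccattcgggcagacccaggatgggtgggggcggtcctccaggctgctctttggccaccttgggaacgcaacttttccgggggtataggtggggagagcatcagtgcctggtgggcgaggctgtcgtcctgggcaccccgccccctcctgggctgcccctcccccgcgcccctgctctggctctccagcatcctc
Fgd3, chr13:49309209-49309458, minus strand: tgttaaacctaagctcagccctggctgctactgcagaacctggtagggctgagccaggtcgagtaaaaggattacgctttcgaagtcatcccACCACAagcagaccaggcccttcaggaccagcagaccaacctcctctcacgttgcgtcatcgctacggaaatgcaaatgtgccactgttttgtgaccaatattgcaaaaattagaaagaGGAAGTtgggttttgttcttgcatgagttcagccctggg
Trem1, chr17:48232489-48232738, plus strand: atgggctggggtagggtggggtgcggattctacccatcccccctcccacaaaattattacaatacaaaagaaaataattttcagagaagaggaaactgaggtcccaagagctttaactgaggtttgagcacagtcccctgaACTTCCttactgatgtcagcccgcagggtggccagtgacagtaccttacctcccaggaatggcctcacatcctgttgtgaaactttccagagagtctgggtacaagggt

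The Spp1 window held an ETS match starting 111 bases before the start and a RUNX match on the other strand 128 bases before it. The Fgd3 window held the same pair, with the ETS match 39 bases and the RUNX match 158 bases before the start. The Trem1 window held an ETS match on the other strand 109 bases before the start. The Trpc4 window held neither GGAAGT nor TGTGGT on either strand. Of 32851 windows of that length in the RefSeq table, 19.7% held the ETS letters, 14.05% the RUNX letters, 6.75% the AP-1 letters and 3.21% the TCF/LEF letters. The E-box CANNTG, present in 66.2% of all windows and left in lower case, was found in the Spp1 and Fgd3 windows. The GC content was 43.6% for Spp1, 66.4% for Trpc4, 50% for Fgd3 and 49.6% for Trem1, against a median of 52.4% over all windows. A further RefSeq window of Spp1, which lies inside the gene and is not shown, held E-box matches and none of the other letters. The Fgd3 window lies inside the span that the files give for that gene. Such matches describe the letters and say nothing of binding.

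In the coordinates of the files, on GRCm38, Spp1 (ENSMUSG00000029304) spans chromosome 5 from 104435118 to 104441050 on the plus strand, with 1648 exonic bases. Trpc4 (ENSMUSG00000027748) spans chromosome 3 from 54156035 to 54318471 on the plus strand, with 8032 exonic bases. Fgd3 (ENSMUSG00000037946) spans chromosome 13 from 49261554 to 49320311 on the minus strand, with 6012 exonic bases. Trem1 (ENSMUSG00000042265) spans chromosome 17 from 48232768 to 48246924 on the plus strand, with 2996 exonic bases. They thus lie on 4 chromosomes, and the tables give 1 value for a whole gene, so that its exons and transcripts are not told apart.

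The libraries held 19302358 to 29860750 reads over the genes of the tables. Replicate 1 of either genotype at P14 stood apart, with 7.06% of reads from Col1a1 in control and 9.15% in dMF1/2, against 13.1% to 17.7% in the other 10 libraries, so P14 results are also given without single libraries. Of 18 genes known from the DP, all were in the tables and none stayed under 1 CPM (counts for each 1000000 reads) in every library. Fgfr1 was lower in dMF1/2 by 0.40 on the log2 scale at P14 (limma's adjusted p = 0.501) and by 0.50 at P16 (adjusted p = 0.130), and the genotypes did not overlap on either day. Fgfr2 differed by -0.11 at P14 (adjusted p = 0.974) and -0.01 at P16 (adjusted p = 0.978). A value for the whole gene also includes transcripts that lack the floxed exons.

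Values of a day are normalized reads, the reads of a gene divided by the size factor the authors gave the library. Spp1 at P16 reached 2053, 752 and 1235 normalized reads in control replicates 1, 2 and 3, and 44.3, 13.1 and 27.5 in dMF1/2 replicates 1, 2 and 3. Every control library stood far above every dMF1/2 library. The SD over 3 mice was 658 in control and 15.6 in dMF1/2, and the group means had a ratio of 47.6.

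Trpc4 at P16 measured 802, 311 and 413 normalized reads in control and at 48.6, 6.53 and 10.6 in dMF1/2. Replicate 1, the highest dMF1/2 library, stayed below the lowest control library, and the means had a ratio of 23.2, or 59.4 without that library. Fgd3 at P16 was at 221, 63.3 and 63.9 normalized reads in control and at 4.32, 1.87 and 4.23 in dMF1/2 mice, with a ratio of 33.4, or 18.3 without control replicate 1. Control replicate 1 led for Spp1, Trpc4 and Fgd3 alike.

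Trem1 at P16 was at 13.97, 38.4 and 90.2 normalized reads in control and at 1.08, 0 and 2.12 in dMF1/2 mice. The groups did not overlap, but control replicate 1, the highest for the other 3 genes, was the lowest control library for Trem1. With 142 reads in the control and 3 in the dMF1/2 libraries, the ratio of summed reads was 45.2, with an exact Clopper-Pearson 95% interval of 15.2 to 222 that covers counting error only. The ratio of means was 44.6, or 24.6 without control replicate 3 and 87.99 without dMF1/2 replicate 3.

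These P16 values chose the genes and are therefore given without a test. On the log2(normalized reads + 1) scale, which understates the change of low genes, the P16 difference of dMF1/2 minus control was -5.56 ± 0.47 (SE) for Spp1, -4.85 ± 0.66 for Trpc4, -4.50 ± 0.53 for Fgd3 and -4.34 ± 0.74 for Trem1. Leaving out 1 library at a time gave -5.95 to -5.11 for Spp1, -5.65 to -4.29 for Trpc4, -4.80 to -3.91 for Fgd3 and -5.01 to -3.70 for Trem1, the value nearest 0 without dMF1/2 replicate 2 for Spp1 and Trpc4, control replicate 1 for Fgd3 and control replicate 3 for Trem1. The 4 genes ranked 2, 3, 5 and 6 among the falls of the 13457 genes that averaged 10 or more normalized reads. Rank 1 was Slc30a2, a zinc transporter gene, with -6.11, and rank 4 was Cemip, whose product takes part in breaking down hyaluronan, with -4.66. Just past them came a, the agouti signalling protein gene, with -3.70. At P16, 2.14% of genes passed as lower in dMF1/2 (limma, Benjamini-Hochberg adjusted p under 0.05), and 11.6% had every dMF1/2 library below every control library.

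Over all 12 libraries, the values were rescaled jointly so that days can be set side by side. By group mean, each gene was highest in P16 control, lower and widely spread in P14 control, and lowest in the dMF1/2 groups of both days. Single libraries broke this order, since P14 control replicate 2 lay among or below dMF1/2 libraries for Spp1, Trpc4 and Trem1, and P14 control replicates 1 and 3 lay above P16 control replicate 1 for Trem1. In bulk RNA, fewer cells that express a gene and less of its RNA per cell cannot be told apart.

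**Figure D1:**
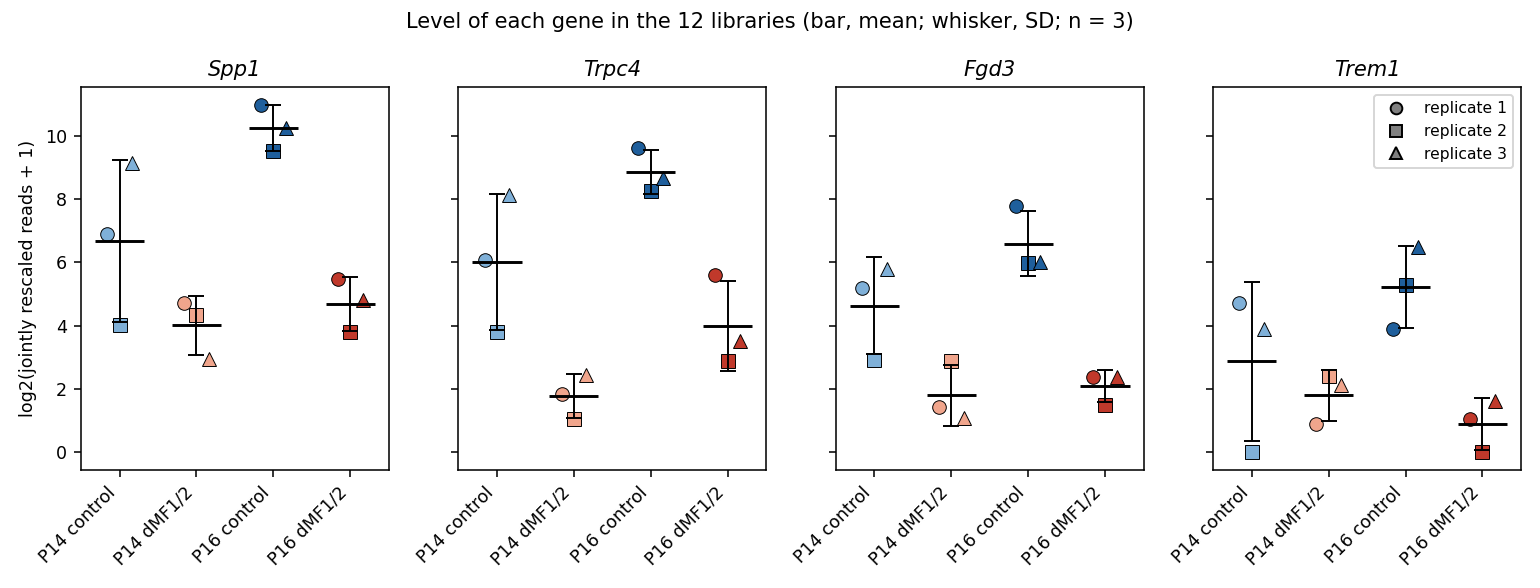
Level of Spp1, Trpc4, Fgd3 and Trem1 in the 12 libraries, as log2(jointly rescaled reads + 1), with P14 and P16 control libraries in blue and dMF1/2 libraries in red. Marker shapes give the replicate number, horizontal bars the mean and whiskers the SD over 3 mice; the P16 control libraries stand above all dMF1/2 libraries for each gene, and P14 control replicate 2 lies near the dMF1/2 libraries.

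At P14, 2 days earlier and in mice that did not choose the genes, the question was whether the transcripts already differed between genotypes. Trpc4 was at 66.1, 12.9 and 276 normalized reads in control replicates 1, 2 and 3 and at 2.52, 1.07 and 4.44 in the dMF1/2 replicates. The groups did not overlap, although the control libraries themselves spread over a wide range. The log2 difference was -4.22 ± 1.03 (SE), with a 95% interval of -6.65 to -1.80, the rank 2 fall among 13334 genes tested. It did not pass limma's test after adjustment (adjusted p = 0.317), and the exact two-sided permutation test gave p = 0.1, the smallest that 3 against 3 allows.

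The call for Trpc4 at P14 turned on how the libraries were modelled. Same-numbered libraries of a day deviated together, and blocking on that number brought limma's adjusted p to 0.0146 for the same difference. DESeq2 on the recovered reads gave an adjusted p of 0.00377, while edgeR without the block gave 0.295. At P14 limma with the block called 1.68% of all genes, DESeq2 1.4% and edgeR 0.0525%, in either direction.

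Fgd3 at P14 was at 35.4, 6.43 and 53.6 normalized reads in control and at 1.68, 6.40 and 1.11 in dMF1/2 mice. The groups touched rather than separated: control replicate 2 and dMF1/2 replicate 2 each held 6 reads, and only their scaling set them apart. The log2 difference was -2.82 ± 0.86 (SE; 95% interval -4.86 to -0.78), with an adjusted p of 0.471 by limma and of 0.0199 by DESeq2. The exact permutation test gave p = 0.1.

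Spp1 at P14 was at 117, 15.0 and 551 normalized reads in control and at 25.2, 19.2 and 6.67 in dMF1/2 mice. Control replicate 2 lay below dMF1/2 replicates 1 and 2, so the groups overlapped. The log2 difference was -2.67 ± 1.195 (SE; 95% interval -5.49 to 0.15; limma's adjusted p = 0.713), and the exact permutation test gave p = 0.3.

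Trem1 at P14 was at 25.2, 0 and 13.7 normalized reads in control and at 0.841, 4.27 and 3.33 in dMF1/2 mice. Control replicate 2 had no Trem1 read among its 23037185 reads, and the groups overlapped. Its mean of 7.87 normalized reads was under the minimum of 10, so limma did not test it. The log2 difference was -1.06, with p = 0.4 by the exact permutation test.

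Of the 4 genes, 3 could be tested at P14 and 0 passed limma's threshold after adjustment, beside 0.0525% of all genes in either direction and 0.0375% as lower in dMF1/2. Without adjustment, p was under 0.05 for Trpc4 and Fgd3, beside 3.87% of genes lower at that level. DESeq2 passed Trpc4 and Fgd3, and edgeR without the block passed 0 of the 3 it tested. Trpc4 and Fgd3 had every dMF1/2 library below every control library, as did 6.32% of all genes tested.

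**Figure D2:**
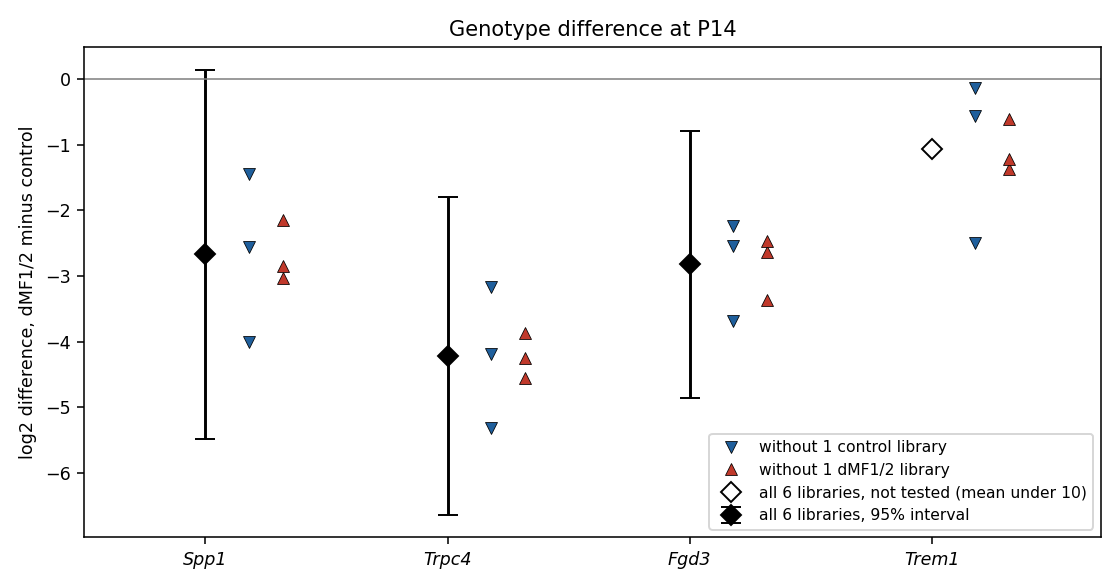
Difference between dMF1/2 and control mice at P14, in log2(normalized reads + 1), for each gene. Black diamonds are the value from all 6 libraries with limma's 95% interval, the open diamond is Trem1, which was not tested, and triangles are the values after leaving out 1 control (blue) or 1 dMF1/2 (red) library; without control replicate 2 the differences reach -4.002 for Spp1, -5.32 for Trpc4, -3.68 for Fgd3 and -2.49 for Trem1.

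The P14 differences shifted with the control library left out. Without replicate 2, where each gene was lowest, the differences grew to -4.002 for Spp1, -5.32 for Trpc4, -3.68 for Fgd3 and -2.49 for Trem1. Without replicate 3 they shrank to -1.45 for Spp1, -3.16 for Trpc4, -2.24 for Fgd3 and -0.56 for Trem1. Without control replicate 1, which held little Col1a1, they were -2.56 for Spp1, -4.18 for Trpc4, -2.54 for Fgd3 and -0.14 for Trem1. For Trem1 this was the largest decrease in size among the 6 libraries left out in turn. No fit without a single P14 library passed Spp1, Trpc4 or Fgd3, Trem1 was not tested in them, and the values of all 4 genes kept their sign.

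The spread among the P14 control mice was itself large. The SD of log2(jointly rescaled reads + 1) over the 3 control mice was 2.56 for Spp1, 2.16 for Trpc4, 1.52 for Fgd3 and 2.52 for Trem1, against a median of 0.176 over 13415 genes. These values exceeded those of 99.8%, 99.8%, 99.4% and 99.8% of genes. At P16 the control SD was 0.73 for Spp1, 0.70 for Trpc4, 1.03 for Fgd3 and 1.31 for Trem1, with a median of 0.153 over all genes.

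Spp1, Trpc4 and Fgd3 ordered the P14 control mice alike, with replicate 3 highest and replicate 2 lowest. Trem1 differed in that replicate 1 was highest, while replicate 2 was again lowest. The other 284 genes called lower in dMF1/2 at P16 gave the same order as Spp1. Relative to the P14 control mean, their median log2 level was 0.01 in control replicate 1, -0.25 in replicate 2 and 0.27 in replicate 3. In the P14 dMF1/2 libraries that median was between -0.54 and -0.36, in the P16 control libraries between 0.52 and 0.77, and in the P16 dMF1/2 libraries between -0.47 and -0.28. The gap between genotypes at P16 follows from the choice of these genes. The spread of the 4 genes among P14 control mice thus ran beside a smaller one of many genes, and its source was not tested.

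From P14 to P16, the mean of the control libraries was 5.75 times as high for Spp1, 4.18 times for Trpc4, 3.55 times for Fgd3 and 3.58 times for Trem1, on jointly rescaled reads. The log2 differences were 3.57 ± 1.54 (SE), 2.84 ± 1.31, 1.95 ± 1.06 and 2.35 ± 1.64 in that order. These SEs come from the spread of each gene alone, unlike limma's SEs of the genotype differences, which draw on all genes. Each P16 control library stood above each P14 control library for Spp1, Trpc4 and Fgd3, but not for Trem1. The share of all genes that separate likewise between days was not counted. P14 control replicate 3 held most of the P14 reads of Spp1 and Trpc4, and without it the ratios were 19.8 for Spp1, 12.5 for Trpc4 and 5.40 for Fgd3. Without P16 control replicate 1 that of Fgd3 was 1.94, and that of Trem1 was 6.78 without P14 control replicate 1, 2.38 without P14 control replicate 2 and 1.96 without P16 control replicate 3. Since the P16 libraries chose the genes, these changes are descriptions.

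In the dMF1/2 mice the genes did not move as one. Trpc4 went from 8 reads in all at P14 to 62 at P16, and its P16 mean was 7.92 times the P14 mean. Each P16 library stood above each P14 library, a separation not counted over all genes. The ratio of summed Trpc4 reads was 7.73, with a counting interval of 3.69 to 18.7, and dMF1/2 replicate 1 alone held 45 of the 62 reads, without which the ratio of means was 3.10. Spp1 was at 1.61 times its P14 mean, with overlapping groups and a log2 difference of 0.68 ± 0.73 (SE from the spread of this gene alone). Fgd3 held 9 reads in all at P14 and 10 at P16, and Trem1 held 8 and 3.

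The P16 dMF1/2 libraries can also be set beside the P14 control libraries. The P14 control mean was 8.33 times the P16 dMF1/2 mean for Spp1, 5.59 times for Trpc4, 9.47 times for Fgd3 and 12.5 times for Trem1. Leaving out 1 library at a time gave 2.42 to 12.2 times for Spp1, 1.87 to 14.3 for Trpc4, 6.22 to 13.2 for Fgd3 and 6.62 to 24.8 for Trem1, with the lowest values of Spp1, Trpc4 and Fgd3 reached without P14 control replicate 3 and that of Trem1 without P14 control replicate 1. The highest were reached without P14 control replicate 2 for Spp1 and Fgd3, without P16 dMF1/2 replicate 1 for Trpc4 and without P16 dMF1/2 replicate 3 for Trem1. For Fgd3 each P14 control library lay above each P16 dMF1/2 library, while for the other 3 genes P14 control replicate 2 fell within or below the P16 dMF1/2 range. How many of all genes separate these groups was not counted.

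Levels between genes were compared per kilobase of exons. In the P16 control libraries Spp1 was at 805 ± 394 rescaled reads per kilobase (SD, n = 3), above 94.9% of 14958 genes. Trpc4 was at 62.4 ± 31.8, above 49.2% of genes, Fgd3 at 19.0 ± 14.9, above 28.2%, and Trem1 at 15.6 ± 12.9, above 25.9%. Fgd3 and Trem1 did not differ beyond their spread. Spp1 was thus an abundant transcript of the P16 control DP, and Fgd3 and Trem1 were scarce ones.

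In the P14 control libraries the levels per kilobase were 140 ± 175 for Spp1, 14.9 ± 17.6 for Trpc4, 5.36 ± 4.01 for Fgd3 and 4.37 ± 4.26 for Trem1. The ranges over mice overlapped between neighbours in this order. Within each library, however, Spp1 was above Trpc4, at 72.1 against 8.34, 9.24 against 1.62 and 339 against 34.8. Trpc4 was also above Fgd3 in each library, while Fgd3 was below Trem1 in replicate 1 and above it in the others. In the P16 dMF1/2 libraries they were 16.8 ± 9.25, 2.67 ± 2.82, 0.566 ± 0.226 and 0.349 ± 0.347, with Spp1 above 26.7% of genes and each of Fgd3 and Trem1 above less than 2% of them. In the P14 dMF1/2 libraries they were 10.5 ± 5.83, 0.337 ± 0.213, 0.515 ± 0.487 and 0.948 ± 0.596, and Trpc4, Fgd3 and Trem1 did not separate there. By mean alone, Trpc4 was the lowest of the 4 in dMF1/2 at P14 and the second highest at P16, but its P14 place is not established.

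Across the 12 libraries, Pearson's r of log2(jointly rescaled reads + 1) was 0.94 between Spp1 and Trpc4, 0.95 between Spp1 and Fgd3, and 0.91 between Trpc4 and Fgd3. Much of this comes from the 4 groups the libraries share. Taken as deviations from the group means, r was 0.82, 0.84 and 0.62 for the same pairs. Trem1 had the lowest values, with r of 0.82 to Spp1, 0.74 to Trpc4 and 0.81 to Fgd3, and 0.54, 0.47 and 0.49 on deviations. These are descriptions over 12 libraries, which share depth, day and genotype.

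Genes most like each one were ranked by r over the same 12 libraries, among 13411 genes. Spp1 was most like Egflam (r = 0.985), which encodes a matrix protein known as pikachurin, followed by Cspg4, Enpep, Ptges and Igfbp3. Egflam had medians of 3629, 2199, 5771 and 2357 rescaled reads in P14 control, P14 dMF1/2, P16 control and P16 dMF1/2 libraries, the same order of control groups as Spp1 over a far narrower range. Igfbp3, an IGF binding protein gene, came closest to the fold range of Spp1, with medians of 24997, 9061, 79797 and 14005 in that order of groups.

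Trpc4 was most like Ncf1 (r = 0.98), which encodes a subunit of the phagocyte NADPH oxidase, followed by Cemip, Tfap2a, Igfbp3 and Plcg2. The medians of Ncf1 were 40.6, 4.49, 97.9 and 11.4 rescaled reads in P14 control, P14 dMF1/2, P16 control and P16 dMF1/2 libraries. Those of Cemip were 174, 8.97, 1223 and 44.7. Like Trpc4, each of these 5 genes had a lower median in P14 than in P16 dMF1/2 libraries, which choosing them by r favours.

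Fgd3 was most like Unc5b (r = 0.97), a netrin receptor gene, followed by Egflam, Abca7, Etv4 and Ptges. Etv4 was also the gene most like Fgd3 by deviations from the group means (r = 0.95), so that the 2 varied together within groups as well. The medians of Etv4 were 167, 48.6, 214 and 41.2 rescaled reads in P14 control, P14 dMF1/2, P16 control and P16 dMF1/2 libraries. Trem1 was most like Pkn3 (r = 0.92), a protein kinase gene with medians of 36.8, 11.8, 64.2 and 8.45 in the same order, followed by Adgra3, Ubxn6, Cux1 and Chchd10. For Adgra3, Ubxn6 and Cux1 the range over groups was small, and for Trem1 no gene of the 5 was also among the 5 most alike by deviations. That overlap was 1 of 5 for Spp1, 2 of 5 for Trpc4 and 3 of 5 for Fgd3.

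**Figure D3:**
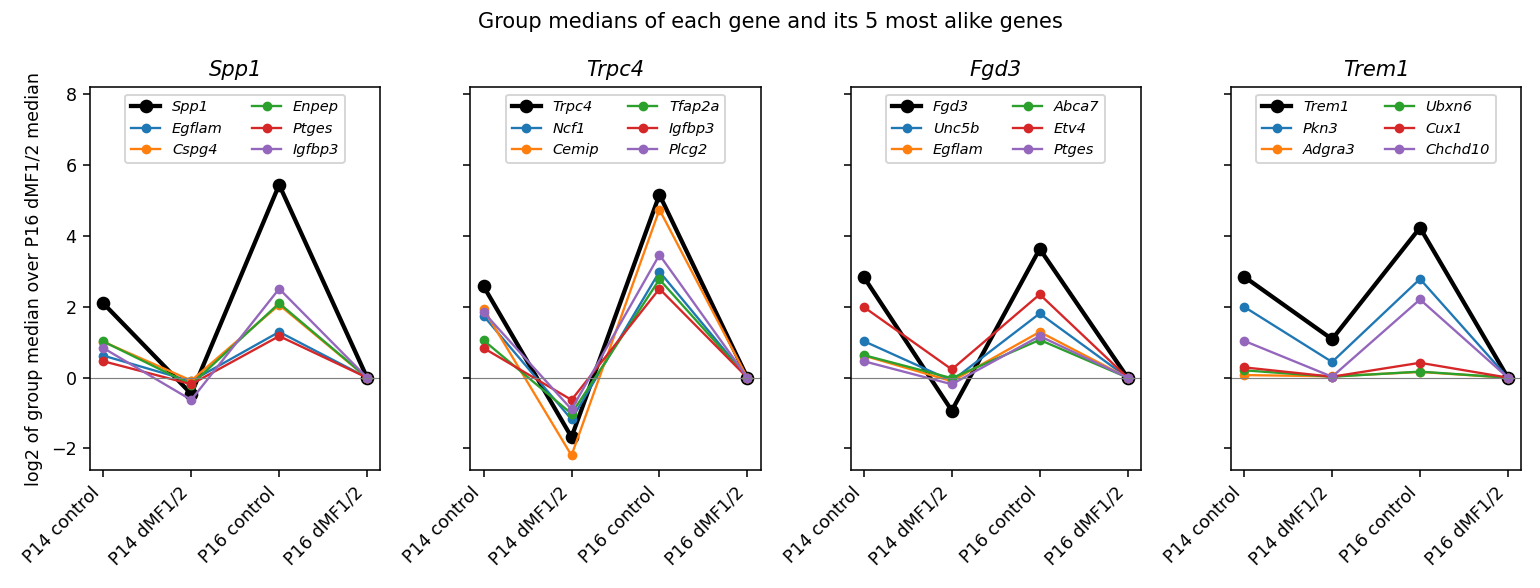
Group medians of each gene (black) and of the 5 genes most like it (colours), in log2(jointly rescaled reads + 1) relative to the P16 dMF1/2 median of the same gene, for the 4 groups on the x axis. Every line but that of Ubxn6, which is highest in P14 control, peaks in P16 control, the black line spans the widest range in the Spp1, Fgd3 and Trem1 panels, and Adgra3, Ubxn6 and Cux1 stay nearly flat beside Trem1. The genes were chosen by r over these same libraries, which favours a shared shape.

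The genes next to the 4 on the chromosome were looked up as well, taking the nearest 2 of the P16 table on each side. They lie 18.4 to 499 kb away, and 13 of these 16 were abundant enough for a test on each day. At P16, 0 of 13 passed limma's threshold, beside 4.32% of all genes, with 2 at an unadjusted p under 0.05, beside 19% of all genes, and log2 differences between -0.36 and 0.18. At P14, 0 of 13 passed, with 0 at an unadjusted p under 0.05, beside 7.32% of all genes, and differences between -0.46 and 0.39. DESeq2, edgeR and limma with the replicate block also passed 0 of 13 on either day. The nearest tested neighbours at P16 were Pkd2 (18.4 kb from Spp1) at -0.12, Bicd2 (21.2 kb from Fgd3) at -0.20, Postn (42.6 kb from Trpc4) at -0.03 and B430306N03Rik (69.2 kb from Trem1) at -0.04.

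Ibsp and Dmp1, relatives of Spp1 in the family of secreted mineral-binding glycoproteins, are its neighbours on the other side, 124 and 221 kb away. Ibsp, which encodes bone sialoprotein, was at 0 reads in all 3 P16 control libraries and at 14.04, 25.2 and 3.18 normalized reads in the P16 dMF1/2 libraries. At P14 it was at 1.86, 4.29 and 0 normalized reads in control and at 1.68, 7.47 and 28.9 in dMF1/2 mice. These values were opposite in direction to Spp1 at P16, but their mean was under 10 and they were not tested. Dmp1 was at 5.07 to 8.73 normalized reads in control and 4.67 to 7.41 in dMF1/2 mice at P16.

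Of 9 genes for osteopontin receptors tested at P16, among them integrin subunits and Cd44, 0 passed limma's threshold after adjustment and 2 were at an unadjusted p under 0.05, beside 4.32% and 19% of all genes, with a median log2 difference of -0.12 beside -0.004 over all genes. Cd44 was lower by 0.74 (adjusted p = 0.0681) and Itga9 higher by 0.91 (adjusted p = 0.0842). DESeq2 passed 2 of the 9, edgeR 0, and limma with the replicate block Itga9 (adjusted p = 0.0457), where they called 7.49%, 4.48% and 10.4% of all genes at P16. Of 6 genes of the osteopontin family and its processing, 0 passed and 1 was at an unadjusted p under 0.05, beside the same 4.32% and 19%, with a median of -0.10. DESeq2 passed 1 of these, edgeR 0, and limma with the block Mmp3, a matrix metalloproteinase gene (-0.65, adjusted p = 0.00504).

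Among 9 mineralized tissue genes tested at P16, 1 rose and 1 fell, beside 2.18% of all genes that passed as higher in dMF1/2 and 2.14% as lower. Alpl, which encodes tissue-nonspecific alkaline phosphatase, rose by 2.45 ± 0.22 (SE; adjusted p = 0.00329), from 223, 360 and 257 normalized reads in control to 1254, 1364 and 1971 in dMF1/2 mice. Ank, a gene for pyrophosphate transport, fell by 1.10 (adjusted p = 0.0159), a call lost without dMF1/2 replicate 3 (adjusted p = 0.0717). The median of the 9 was -0.11. With the block Sp7, a transcription factor gene of osteoblasts, also passed as higher (0.89, adjusted p = 0.0148), beside 10.4% of all genes. DESeq2 passed 4 of the 9 and edgeR 2, beside 7.49% and 4.48%, and 4 were at an unadjusted p under 0.05, beside 19%.

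Trpc6, another TRPC channel gene, fell at P16 by 1.83 ± 0.20 (SE; adjusted p = 0.00592), from 164, 135 and 118 normalized reads in control to 44.3, 40.1 and 30.7 in dMF1/2 mice. Trpc1 differed by 0.24 (adjusted p = 0.334). Of 15 genes of Gq signalling, phospholipase C and store-operated calcium entry, 0 passed by limma or edgeR, beside 4.32% and 4.48% of all genes. Of these 15, 2 were at an unadjusted p under 0.05 and DESeq2 passed 2, beside 19% and 7.49% of all genes, with a median of -0.16. With the block Itpr1, a gene for a calcium release channel, passed as higher (0.80, adjusted p = 0.00533) and Plcb1, a phospholipase C gene, as lower (-0.76, adjusted p = 0.00841), beside 10.4% of all genes.

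Of 4 other FGD genes tested at P16, 0 passed by limma, with or without the block, by DESeq2 or by edgeR, and 0 were at an unadjusted p under 0.05, beside 4.32%, 10.4%, 7.49%, 4.48% and 19% of all genes in that order, with differences of 0.06 for Fgd1, 0.05 for Fgd4, -0.23 for Fgd5 and -0.39 for Fgd6. Of 19 genes of Cdc42 and its effectors, Cdc42ep3 alone passed, with a fall of 0.92 (adjusted p = 0.00841), beside 2.14% of all genes called lower, and the median was -0.10. With the block Baiap2, which encodes an effector of Cdc42, also passed as lower (-0.56, adjusted p = 0.0319), beside 10.4% of all genes called in either direction with it.

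Of 6 genes of TREM receptor signalling tested at P16, 1 fell, beside 2.14% of all genes. Plcg2, which encodes a phospholipase C used by many immune receptors, fell by 3.46 ± 0.39 (SE; adjusted p = 0.00592), from 606, 333 and 488 normalized reads in control to 70.2, 22.4 and 43.4 in dMF1/2 mice. At P14 it was lower by 2.87 (adjusted p = 0.0829, and 0.00351 with the replicate block), from 154, 107 and 282 normalized reads in control to 26.1, 18.1 and 22.2 in dMF1/2 mice. The kinase gene Syk differed by -0.08 at P16 (adjusted p = 0.843). Tyrobp, the adaptor gene through which the TREM1 protein signals in myeloid cells, was at 2 to 6 reads in the P16 control and 0 to 3 in the P16 dMF1/2 libraries.

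Of 15 genes of the FGF-ERK response, 4 fell and 0 rose at P16, beside 2.14% of all genes called lower and 2.18% called higher. Their median was -0.41, and 14 of 15 were below 0, beside 50.8% of all genes. Etv4 fell by 2.41 ± 0.17 (SE; adjusted p = 0.00154), from 278, 197 and 217 normalized reads in control to 42.1, 41.1 and 43.4 in dMF1/2 mice. Etv1 fell by 1.69 (adjusted p = 0.00329), Etv5 by 0.99 (adjusted p = 0.00841) and Dusp6 by 0.996 (adjusted p = 0.0125), the last not passing without control replicate 3 (adjusted p = 0.0571). At P14, 0 of the 15 passed and 13 were below 0, beside 48.7% of all genes, with a median of -0.56 and 8 at an unadjusted p under 0.05, beside 7.32% of all genes. DESeq2 passed 4 of them at P14, edgeR 0, and limma with the block 5, beside 1.4%, 0.0525% and 1.68% of all genes. The 5 were Etv1, Etv5, Dusp4, Spred2 and Spry4, each lower in dMF1/2. At P16 the block raised the count from 4 to 9, while over all genes it raised it from 582 to 1403. At P14 the differences of the FGF-ERK genes were smaller in size than those of Spp1, Trpc4 and Fgd3, which was not tested. At P16 they were smaller too, but this follows from choosing those genes among the largest falls.

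At P14, 0 of the 85 genes tested in the 9 lists on osteopontin and its receptors, mineralized tissue, TRPC channels, Gq signalling, the FGD family, Cdc42, TREM and the FGF-ERK response passed limma's threshold after adjustment, beside 0.0525% of all genes, and 18 were at an unadjusted p under 0.05, beside 7.32%. Of the same genes edgeR passed 0, DESeq2 7 and limma with the replicate block 11, beside 0.0525%, 1.4% and 1.68% of all genes. Among those 11, Alpl was higher in dMF1/2 at P14 as well, by 1.41 (adjusted p = 0.00315 with the block).

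**Figure D4:**
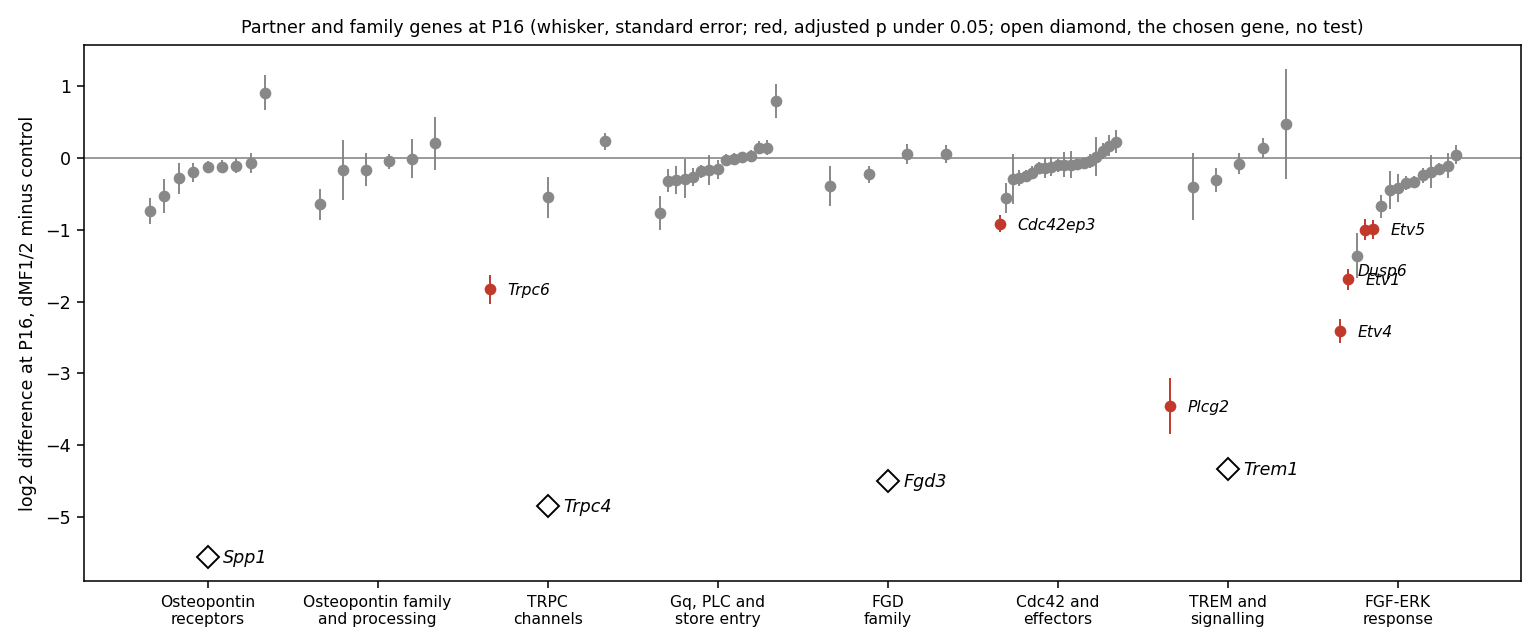
Log2 difference of dMF1/2 minus control at P16 for the tested genes of 8 lists, with whiskers for the standard error. Red points passed limma's adjusted threshold and are named, grey points did not, and open diamonds give Spp1, Trpc4, Fgd3 and Trem1 above the list they belong to, without a test; most list genes lie near 0, with Plcg2 at -3.46 and Etv4 at -2.41 the lowest red points.

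Markers of other cell types were read beside these results, since Spp1 and Trem1 are also known from myeloid cells. Of 14 macrophage and monocyte markers in the tables, 9 stayed under 1 CPM in every library, among them Ptprc, the pan-leukocyte gene, and Adgre1, and Itgam and C1qa were not analysed here. Ptprc was at 0.134 to 0.415 CPM in P16 control and at 0 to 0.0737 in P16 dMF1/2 libraries, where Trem1 was at 0.536 to 3.85 and 0 to 0.0945. The summed list was at 28.5 to 37.9 CPM in P16 control and 26.0 to 37.3 in P16 dMF1/2 libraries, mostly from Csf1r and Fcgr3. Without these 2 genes it was at 4.89 to 8.30 and 3.78 to 5.94. Of 6 tested, Cd14 alone fell, by 1.13 (adjusted p = 0.0351), which was lost in 5 of 6 fits without a library and in the joint fit of the 12 libraries (adjusted p = 0.0508), beside 2.14% of all genes called lower.

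Neutrophil markers summed to 4.89 to 5.94 CPM in P16 control and 6.53 to 8.01 in P16 dMF1/2 libraries, opposite in direction to Trem1, and 0 of 4 passed by limma, DESeq2 or edgeR, with 1 at an unadjusted p under 0.05, beside 4.32%, 7.49%, 4.48% and 19% of all genes. At P14, where control replicate 1 had the most Trem1 reads, it also had the highest neutrophil sum, 30.2, against 12.8 and 8.21 in control replicates 2 and 3. Among the P14 dMF1/2 libraries, replicate 1 had the highest neutrophil sum, 18.5 against 5.05 and 6.81, but the fewest Trem1 reads, 1 against 4 and 3. The part of myeloid cells in the values of Spp1 and Trem1 was not tested.

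Of the pericyte markers, Cspg4 fell at P16. The summed list was at 904 to 1125 CPM in control and 461 to 602 in dMF1/2 libraries, and without Cspg4, which is also among the genes most like Spp1, at 521 to 566 and 329 to 492. Cspg4 was the only one of 5 to pass, with a fall of 2.05 (adjusted p = 0.00604), while Rgs5 differed by -0.55 (adjusted p = 0.189), Notch3 by -0.22 (adjusted p = 0.542) and Kcnj8 by 0.04 (adjusted p = 0.913), and with the block Abcc9 passed too (adjusted p = 0.0447). The shares of all genes were 2.14% called lower by limma and 10.4% with the block. At P14 the sums without Cspg4 overlapped, at 329 to 502 in control and 390 to 429 in dMF1/2 libraries. Endothelial markers had a median difference of -0.87 at P16 with 0 of 8 passing by limma or edgeR, 2 by DESeq2, 3 at an unadjusted p under 0.05 and Pecam1 alone with the block (adjusted p = 0.0285). The shares of all genes were 4.32% with limma, 4.48% with edgeR, 7.49% with DESeq2, 19% without adjustment and 10.4% with the block. The endothelial sums overlapped, at 27.8 to 67.9 CPM in control and 36.2 to 53.6 in dMF1/2 libraries. Of the 8 genes, 7 were below 0, beside 50.8% of all genes. Vwf was at 5.19 to 10.3 CPM in control and 4.02 to 4.91 in dMF1/2 libraries. Kdr alone differed the other way, by 0.92 (adjusted p = 0.274), with every dMF1/2 library above every control library. The part of these cells in the results was not tested.

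The summed level of genes known from the DP was higher in dMF1/2 at P16. It was at 2080 to 3680 CPM in control and 4561 to 6832 in dMF1/2 libraries, and of 18 tested, 7 rose (Alx4, Bmp6, Fgf10, Hey2, Nog, Prom1 and Rspo3) and Crabp1 fell, beside 2.18% and 2.14% of all genes. Without dMF1/2 replicate 3 the calls of Hey2, Alx4 and Nog were lost (adjusted p = 0.0706, 0.0515 and 0.0700), and that of Hey2 also without dMF1/2 replicate 2 (adjusted p = 0.0618). With the block 14 of the 18 passed at P16, beside 10.4% of all genes. At P14 Hey2 alone passed, a call lost in each of the 6 fits without a library (adjusted p = 0.0683 to 0.320) and in the joint fit of the 12 libraries (adjusted p = 0.0885), and 4 passed with the block, beside 1.68% of all genes. Genes known to respond to tissue dissociation had all 10 differences below 0 at P16, beside 50.8% of all genes, with a median of -0.35, and Atf3 alone passed (-0.65, adjusted p = 0.0224), which was lost in 4 of 6 fits without a library and in the joint fit (adjusted p = 0.240), while 3 passed with the block, beside 2.14% of all genes called lower and 10.4% with the block. Their sums overlapped, at 13174 to 17917 CPM in control and 11664 to 14235 in dMF1/2 libraries.

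Among the remaining marker lists, keratinocyte, melanocyte, skeletal muscle, Schwann cell, dermal sheath and dermal fibroblast markers had 0 of 31 tested genes past the threshold of limma or edgeR at P16, with 1 passing by DESeq2, 4 with the block and 3 at an unadjusted p under 0.05. The shares of all genes were 4.32% with limma, 4.48% with edgeR, 7.49% with DESeq2, 10.4% with the block and 19% without adjustment. Of 2 adipocyte markers tested, Plin1 was higher by 2.43, beside 2.18% of all genes, and with the block or DESeq2 both passed, Fabp4 with a difference of -1.03. Mast and T cell markers had no gene abundant enough for a test.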

How the data were processed

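Libraries of DP cells from P14 and P16, 3 for each genotype and day, were analysed; other days were not analysed here. Per the study's methods and the submitters' processing notes, rRNA-depleted stranded libraries were sequenced as single-end reads, trimmed with Trimmomatic, mapped to mm10 with TopHat2, and counted per Ensembl gene with HTSeq-count. The deposited values are a signal, the reads of a gene divided by the DESeq2 size factors that the authors fitted over the 6 libraries of a day. The tables also hold the authors' own comparisons from DESeq2, namely log2 fold changes, a test score, p-values and adjusted p-values, which were not used. All values (100% within a tolerance of 0.01 reads) were whole multiples of what 1 read is worth in the library, so reads were recovered. The number of per-sample columns left out was 0.

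Within each day, limma 3.58.1 (trend) in R 4.3.3 tested genotype on log2(value + 1) over all genes averaging 10 or more, with Benjamini-Hochberg adjustment and a threshold of 0.05. Days were set side by side after rescaling the reads of 14986 shared genes by median of ratios. Exact permutation tests (SciPy 1.17.1) accompany single genes. Depth of 19302358 to 29860750 reads leaves groups with few reads imprecise; intervals of read ratios are exact at 95% and cover counting error only. Nothing says how far the mice were raised apart, so p-values measure the spread between these libraries.

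Deviations from group means correlated between same-numbered libraries of a day (0.586, 0.389 and 0.304 at P14, 0.256, 0.293 and 0.311 at P16). The numbers come from the library names, and since every pair was above 0.1 they were taken to pair the libraries.

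The 4 genes and the gene lists were chosen with earlier results of these data known. Other genes were named by rule: the 5 most alike by r, the nearest 2 on each side, the called genes of each list (at most 4 a day), the targeted genes, and defining or abundant markers; genes of neighbouring rank at P16, the partner genes that did not pass, and Ibsp were named after their values were seen. Promoters are from RefSeq (GRCm38.p6), where each of the 4 genes matched, and exon lengths from the GENCODE annotation of GRCm38. Alternatives were DESeq2 1.42.0, edgeR 4.0.16, TMM scaling, pseudocounts of 0.1 and 10, a block for the replicate number, dropping the filter or requiring 10 reads in all libraries of the day, fitting the 12 libraries jointly, and leaving out each library; edgeR with the block was added after seeing the data. The fits were tested on simulated data.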

Additional observations from a re-analysis of the deposited data

How the results depend on the processing

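The number of genes called at P14, 7, was 205 with DESeq2, 11 in the joint fit of the 12 libraries and 0 to 18 when 1 library was left out. It was 0 without control replicate 1, control replicate 3, dMF1/2 replicate 2 or dMF1/2 replicate 3, with 925, 656, 882 and 607 genes at an unadjusted p under 0.05, and 18 without control replicate 2. The number at P16, 582, was 1104 with DESeq2 and 149 to 683 when 1 library was left out, with 149 without dMF1/2 replicate 3, 185 without control replicate 3, 306 without dMF1/2 replicate 2. With the replicate block the counts were 224 at P14 and 1403 at P16, and with edgeR and the block 245 and 1439. Under the block Trpc4 at P14 passed with its log2 difference of -4.22, and with edgeR and the block it passed at -5.26 (adjusted p = 0.00132). With the block Spp1 and Fgd3 still did not pass at P14, and Trem1 was not tested there. DESeq2 passed Trpc4 at P14 with -5.47 and Fgd3 with -3.40. Over the alternatives other than leaving out a library, adjusted p at P14 ran from 0.00132 to 0.461 for Trpc4, from 0.0199 to 0.522 for Fgd3 and from 0.162 to 0.721 for Spp1. At P16 the difference of Fgd3 was -3.004 with a pseudocount of 10, and that of Trem1 was -5.52 with DESeq2, -5.84 with a pseudocount of 0.1 and -2.15 with one of 10. The cause was not tested. All 4 genes kept their direction on both days in every setting that gave a value. Of the nearest neighbours at P16, whose differences are close to 0, the sign turned in some fits without 1 library, with ranges of -0.32 to 0.15 for B430306N03Rik, -0.26 to 0.0035 for Pkd2 and -0.18 to 0.046 for Postn. Trem1 at P14 had too few reads for a test under most settings, and depth limits the values of Fgd3 and Trem1 in dMF1/2 libraries, which held at most 6 reads each.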
